A study of Mus musculus with 50 samples.

Results

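Calls in 10 very long genes were examined in exomes of IL6Myc mouse tumours: Ttn, Ryr1, Ryr3, Pclo, Csmd1, Csmd3, Bsn, Dnah5, Hydin and Macf1. Members were all rows of the deposited variant table that name one of these genes and list 1 alternate allele, whatever the effect, and they came to 58 of 25624 such variants. The samples were mesenteric lymph node tumours labelled as malignant plasma cells of genotype IL6Myc, a transgenic myeloma model, with 1 mouse per tumour and no treatment, age or transgene promoter given in the labels. Columns of 44 of the 45 labelled tumours were matched, while IL6Myc tumour 4 and the 5 wild-type Balb/c kidneys were not analysed here. Without kidney calls, inherited and acquired variants cannot be told apart. The data are DNA calls, so the cell type could not be checked against expressed markers. Variants are termed private if they were called in 1 tumour and shared if they were called in 2 or more. The read share of a call is the percent of its reads with the alternate allele. Read depth is not given and stays unknown, so single read shares have no interval, and an empty cell may reflect either the reference allele or too few reads.

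Long genes offer a large target to any process that changes DNA, so they collect mutations in proportion to their size even where the protein plays no part in the cell. In tumour sequencing they are therefore often used as a control for passenger mutations, those that ride along with a clone without driving it. The products of these genes mostly serve muscle, synapses and cilia. Titin, encoded by Ttn, is the elastic filament of the muscle sarcomere, and Ryr1 and Ryr3 encode ryanodine receptors, calcium release channels of the sarcoplasmic reticulum. Pclo and Bsn encode piccolo and bassoon, scaffolds of the presynaptic active zone. Csmd1 and Csmd3 encode large membrane proteins with CUB and sushi domains. Dnah5 encodes a dynein heavy chain of motile cilia, Hydin a protein of the ciliary central pair, and Macf1 a linker between actin filaments and microtubules.

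Nearly all variants of these genes were private. Of the 58, 51 were private (87.9%) and 7 were shared, against 49.6% private in the whole table and 60.7% (502) private among the 827 variants that lay within 5 Mb of the 10 genes but outside them. That pooled value hides a wide range, from 42.3% of 189 variants around Bsn to 91.7% of 12 around Csmd3. Around Ttn and Pclo, which hold 18 and 5 of the 58, it was 86.1% and 86.0%, near the share within the genes. How far location accounts for the excess was not tested. No variant of these genes was called in more than 6 tumours. All 10 genes had a private variant, 9 had a private protein-altering one and 6 had a shared one. Of their 19 protein-altering variants 17 were private (89.5%), against 61.3% of the protein-altering variants in the whole table. A set of 28 other long genes, such as Neb, Syne1 and Ryr2, had 116 variants of which 83.6% were private. Those calls were less evenly spread, as tumour 3 held 9 of their 14 private protein-altering variants. At least 1 private variant of the 10 genes was found in 29 of 44 tumours (65.9%, exact Clopper-Pearson 95% interval 50.1 to 79.5%), and a private protein-altering one in 14 (31.8%, 18.6 to 47.6%). These intervals cover counting error only. A single tumour held at most 4 private variants of the 10 genes, whatever their effect, and 16 tumours held more than 1.

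**Figure D1:**
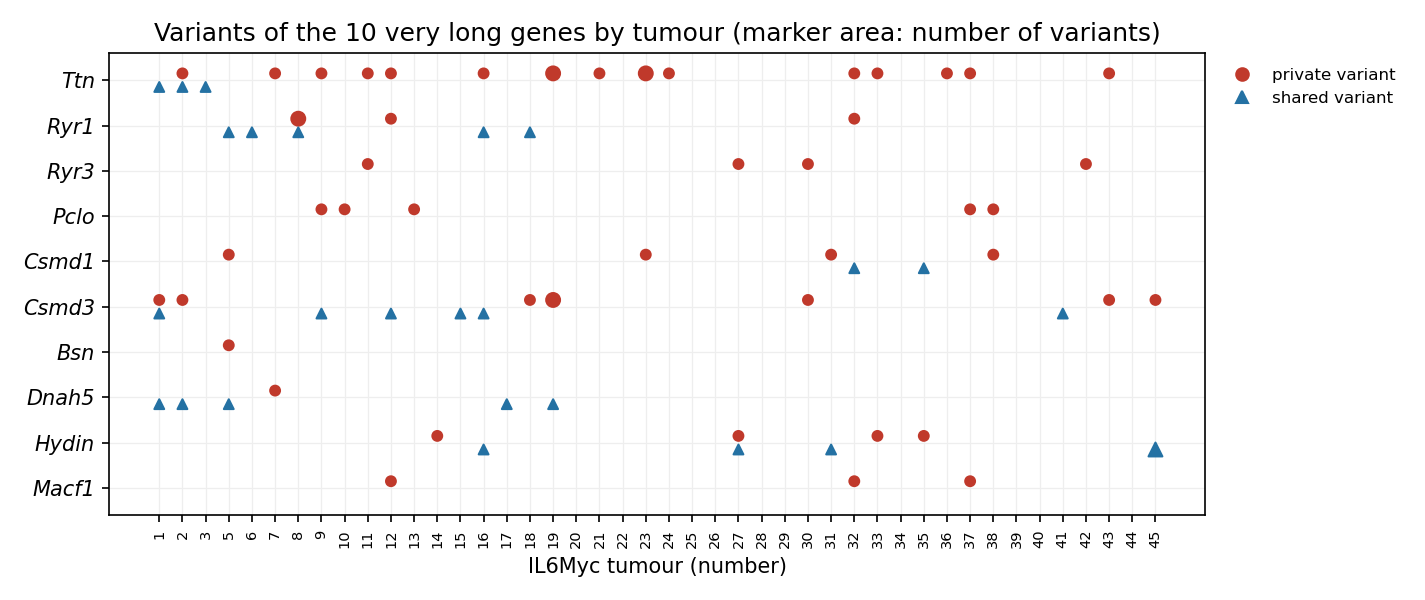
Private (circles) and shared (triangles) variants of each gene, by row, in each of the 44 tumours, by column; marker area is proportional to the number of variants. Private variants of Ttn were spread over 15 tumours, whereas the shared Ttn variant lay in tumours 1, 2 and 3 alone.

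Ttn, on chromosome 2 from 76703980 to 76982557 on GRCm38.p6 (the assembly that mm10 names), held more private variants than any other of the 10 genes, 17 in 15 tumours (34.1% of tumours, exact 95% interval 20.5 to 49.9%). Written positions in its transcript NM_011652 ran up to coding base 98079, whereas the highest written coding position in any other of these genes was 14185, in Pclo. Coding positions here give only a lower bound on coding length, since exon lengths were not used. Gene span did not order the counts in the same way, as Csmd1 spans 1643 kb and held 4 private variants while Ttn spans 278.6 kb. The assay captured exons, so most of a span was not read.

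The 17 private Ttn variants comprised 5 missense, 3 synonymous and 9 intronic ones. The missense change p.Pro9613Ser stood at a read share of 45.35% in tumour 7. The next missense change, p.Glu26591Gly, stood at 16.3% in tumour 19. The other 3 missense changes were p.Ala19574Val at 3.23% in tumour 36, p.Ala17338Val at 2.9% in tumour 12 and p.Gly22467Asp at 2.36% in tumour 24. Of the private Ttn missense calls, p.Pro9613Ser alone lay above 20%. The synonymous changes at p.Lys10521, p.Arg27131 and p.Val32693 had 13.39%, 5% and 3.13% in tumours 33, 32 and 23. Private Ttn single-base variants had a median read share of 8.89%, and 13 of the 15 lay under 20%. The shared Ttn variant was the missense change p.Pro12236Ser at position 76807991, with 51.35%, 50% and 37.31% in tumours 1, 2 and 3. All 3 of its shares were above those of 14 of the 15 private single-base variants of the gene, p.Pro9613Ser being the exception. In tumour 2, which held 1059 other private calls on chromosome 2, the private Ttn call c.10378+5754T>C stood at 8.89%, and no other private call of that tumour lay within 5 Mb outside the gene.

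The muscle calcium channel gene Ryr1, on chromosome 7 from 29003340 to 29125179, carried the one shared missense change of the set besides that of Ttn. This was p.Ala1698Val at position 29086172, found in 5 tumours (11.4%, 3.79 to 24.6%) with read shares of 41.38%, 61.54%, 35.29%, 43.75% and 60% in tumours 5, 6, 8, 16 and 18. Those shares spread to both sides of 50%. Ryr1 had no private missense change. In tumour 8 the synonymous change at p.Glu3792 (position 29047072) and the intronic insertion c.11372-24dupT (position 29047099) both stood at 100%, so both calls of this closely spaced pair showed no reference reads. The other private Ryr1 calls were intronic, c.11037+26A>G at 21.05% in tumour 12 and c.2793-84A>G at 11.11% in tumour 32. Ryr3, on chromosome 2 from 112631354 to 113217405, had 4 private variants and no shared one. Its missense change p.Ile587Thr stood at 23.4% in tumour 30, above its 3 intronic variants at 15%, 11.11% and 7.14%.

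Of the synaptic scaffold genes, Pclo (chromosome 5, 14514906 to 14863465) had 5 private single-base variants, each in another tumour. Its missense changes were p.Ile3983Met at 22.97% in tumour 10, p.Asp4729Tyr at 5.26% in tumour 13 and p.Val2135Ala at 3.54% in tumour 37. The synonymous change at p.Ser2473 had 7.69%, and the intronic c.14007-67C>A had 18.52%, so all 5 stayed below 23%. Bsn (chromosome 9, 108096022 to 108190419) had a single variant, the stop-gained change p.Gln238Ter at position 108126493, with a read share of 47.06% in tumour 5. It was the only stop-gained variant of the 10 genes. Tumour 5 held 910 private calls outside these genes, 2 of them within 5 Mb of the Bsn call, with a median share of 39.3%. Whether the mouse inherited the Bsn call was not tested.

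Csmd1 (chromosome 8, 15892538 to 17535385) and Csmd3 (chromosome 15, 47580638 to 48792558) held most of the private T>G changes, a class that includes A>C on the other strand. T>G made up 6 of the 9 private single-base variants of this pair and 2 of the 32 in the other 8 genes. All 4 private missense changes of the pair were of this class: p.Gln3497Pro of Csmd3 at 39.68% in tumour 19, p.Asn3536Thr of Csmd1 at 26.23% in tumour 23, p.His139Pro of Csmd3 at 23.53% in tumour 2 and p.Thr3316Pro of Csmd1 at 9.38% in tumour 38. The 2 remaining ones were c.6031+43A>C of Csmd1 at 16.67% and the splice-region change c.6652+6A>C of Csmd3 at 4.62%. This grouping was noticed after the values were seen and was not tested. Tumour 19 carried both p.Gln3497Pro and the intronic Csmd3 change c.1973-53C>T. That intronic change stood at 38.1%, close to the 39.68% of the missense change. The remaining private single-base calls of the pair were c.932-121A>T of Csmd1, at 75% in tumour 5, and c.1860-10T>C of Csmd3, at 4.29% in tumour 1.

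Shared variants of this pair of genes were both intronic and stood at 80 to 100%. The Csmd1 deletion c.10315-78_10315-72delCCTCCCC had 100% in tumours 32 and 35. The Csmd3 change c.1633+488C>G had 90%, 100%, 91.67%, 88.89%, 80% and 100% in tumours 1, 9, 12, 15, 16 and 41. No carrier of either was near 50%, unlike the carriers of the shared Ttn and Ryr1 missense changes.

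Among the ciliary genes, Dnah5 (chromosome 15, 28154854 to 28472045) carried the only frameshift of the set, c.6174dupA, written p.Ser2059Ilefs*6, at 21.15% in tumour 7. Its shared intronic deletion c.12901-35_12901-30delATGTAT had 70%, 46.67%, 45%, 60% and 76.92% in tumours 1, 2, 5, 17 and 19, all above the frameshift. Hydin (chromosome 8, 110266968 to 110610253) had the missense change p.Tyr1900Ser at 3.33% in tumour 14, again a T>G change, and the synonymous change at p.Ser3919 at 18.18% in tumour 27. Macf1 (chromosome 4, 123349633 to 123687802), the cytoskeletal linker, had the missense change p.Arg3884Gln at 36.9% in tumour 37, the intronic c.10861-68C>A at 18.18% in tumour 12 and an intronic deletion at 87.5% in tumour 32.

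**Figure D2:**
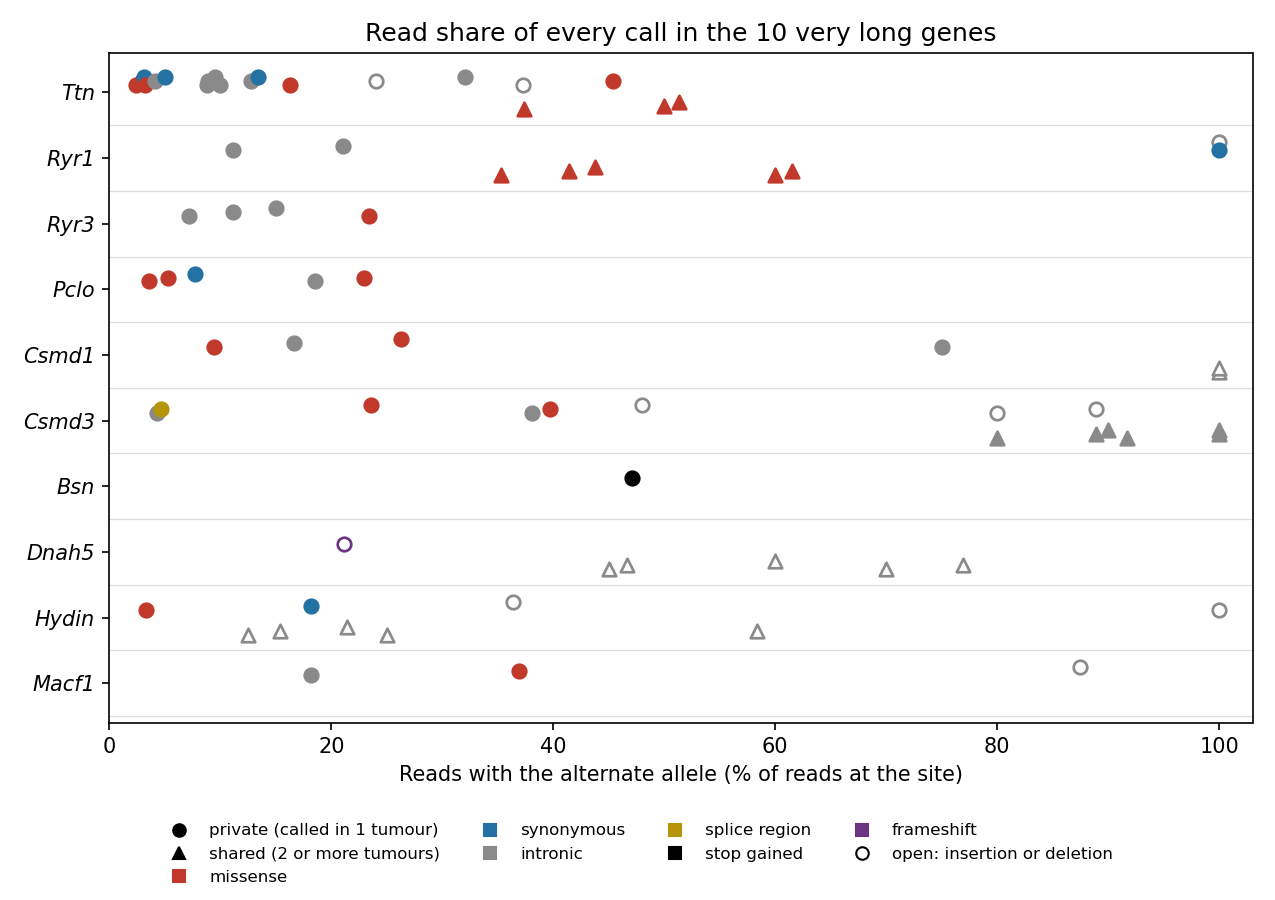
Read share (percent of reads with the alternate allele) of every call, by gene; circles are private and triangles shared variants, filled for single-base variants and open for insertions or deletions, coloured by effect. Private single-base calls gather on the left with a median of 12.7%, while the Ttn and Ryr1 shared missense calls lie between 35.29% and 61.54%.

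Missense and synonymous variants were compared between private and shared calls. Private single-base variants of the 10 genes comprised 15 missense and 6 synonymous ones, a ratio of 2.5, with missense making up 71.4% of them (exact 95% interval 47.8 to 88.7%). Shared ones comprised 2 missense and 0 synonymous. The difference was not past the threshold by Fisher's exact test (two-sided p = 1, adjusted p = 1 over 6 tests), and with only 2 shared coding variants the smallest p this split allowed was 0.0593. The comparison therefore could not separate both classes at this number of variants. The test takes variants as units. Outside the 10 genes the ratio was 1.65 among private variants (1229 missense, 743 synonymous) and 0.546 among shared ones (805 and 1475). The outside private ratio varied with tumour titles: 0.912 for titles 1199 to 1293, 2.08 for 1501 to 1592 and 2.66 for 1601 to 1628. In these ranges the 10 genes had 1 missense and 0 synonymous, 8 and 2, and 6 and 4. The ratios of 2.5 and 1.65 thus rest on unlike mixes of tumours. The other long genes had 14 private missense and 5 synonymous variants, but 9 of those 14 were called in tumour 3. In the 10 genes no tumour held more than 4 private variants, and 27 of the 51 private variants had no other private call of the same tumour within 5 Mb outside the gene, 20 had 1 or 2, and the most was 5.

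The ratio was also read by level. Among private variants of at least 20% read share the 10 genes had 7 missense and 1 synonymous, against 397 and 430 (ratio 0.923) outside them. The mix of tumours differed at this level. The 4 tumours titled 1199 to 1293 gave 2316 of 4802 private single-base variants outside the 10 genes, against 3 of 13 within them. Under 20% the 10 genes had 8 missense and 5 synonymous, a ratio of 1.6, against 832 and 313 (2.66) outside them. The single synonymous call of at least 20% was the Ryr1 one at 100%. The private missense changes had a median read share of 16.3% (range 2.36 to 45.35%), and the private synonymous ones 10.5% (3.13 to 100%), with values that overlapped over most of their range. Outside the 10 genes private missense changes had a median of 10.7% and private synonymous ones 31.1%. The share expected from the codons of these genes without any preference was not computed, since no coding sequence was used here.

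Transitions, the exchanges of C with T or of their complements, made up 27 of 41 private single-base variants (65.9%, exact 95% interval 49.4 to 79.9%) and 2 of 3 shared ones (66.7%, 9.43 to 99.2%). These shares did not differ past the threshold by Fisher's exact test (two-sided p = 1, adjusted p = 1). Outside the 10 genes the share was 54.4% among private and 71.0% among shared variants. By class the private variants were 14 T>C, 13 C>T, 8 T>G, 5 C>A, 1 T>A and 0 C>G. Ttn had 14 transitions among its 15 private single-base variants, the exception being c.36974-59C>A, and the other 9 genes had 13 among 26. T>G changes were 6 missense, 1 intronic and 1 splice-region, with none synonymous, at a median read share of 19.8%. The remaining 33 private single-base variants held 9 missense and 6 synonymous changes. Outside the 10 genes private T>G changes also held more missense than synonymous, 195 and 53, a ratio of 3.68, against 1.23 for C>T and 1.004 for T>C. The other classes that are not transitions had ratios of 3.22 for T>A, 2.92 for C>A and 2.84 for C>G, so a high ratio was not particular to T>G.

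**Figure D3:**
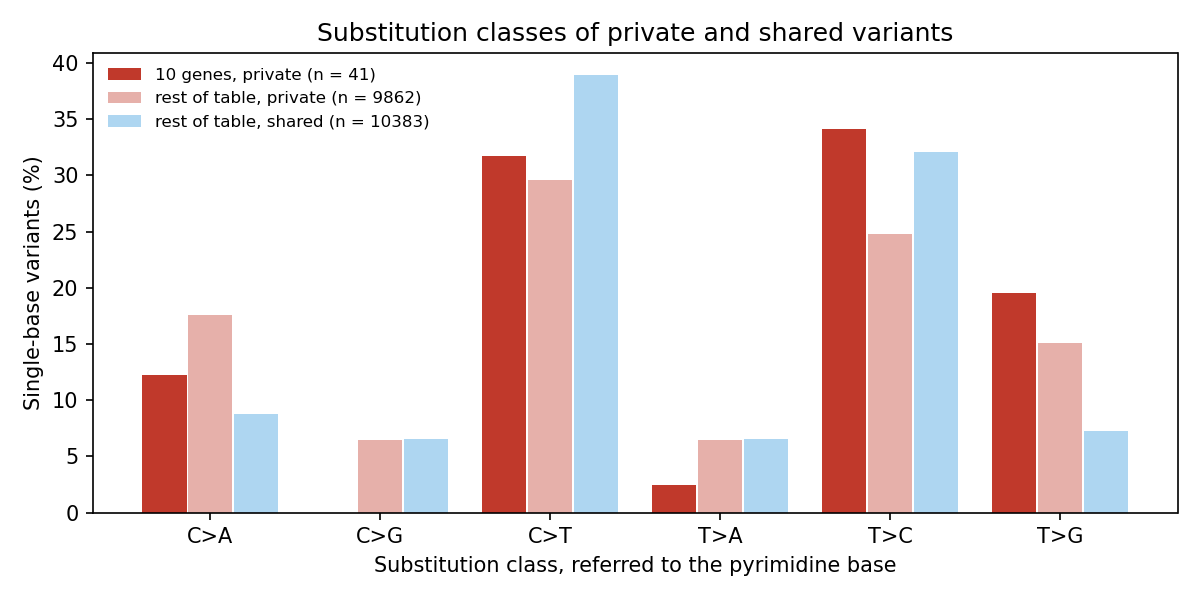
Percent of single-base variants in each of 6 substitution classes for private variants of the 10 genes (41), private variants of the rest of the table (9862) and shared variants of the rest (10383); bars start at 0. T>C (34.1%) and T>G (19.5%) were the classes in which the 10 genes stood above the other private variants (24.8% and 15.1%) by over 4 percentage points; with 41 variants these shares are imprecise.

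C>A changes made up 5 of 41 private and 0 of 3 shared single-base variants (Fisher's exact test, two-sided, p = 1, adjusted p = 1). All 5 were called in tumours whose titles run from 1505 to 1568, 9 tumours in all, and none exceeded 18.52%. Those 9 tumours also held 842 of the 1737 private C>A variants outside the 10 genes (48.5%). The labels do not say that these titles mark a batch. Without those tumours no C>A change was left in the 10 genes, and transitions made up 22 of 29 private variants (75.9%).

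Read shares of single-base variants were compared within tumours. Private ones had a median of 12.7% (quartiles 5.26 and 23.4%), with 17 of 41 under 10% and 28 under 20%. The 3 shared ones had medians over carriers of 43.75%, 50% and 90.8%. In the rest of the table the medians were 18.2% for private and 47.9% for shared variants. That private median was 43.1% in tumours titled 1199 to 1293, 15.4% in those titled 1501 to 1592 and 14.3% in those titled 1601 to 1628. In 7 tumours that carried both kinds, the mean of per-tumour medians was 31.8% ± 35.4 for private and 64.4% ± 24.6 for shared variants of the 10 genes (SD, n = 7). The private value was lower in 5 of the 7 tumours, and the mean of private minus shared was -32.6 percentage points (SD 55.2). The difference was not past the threshold (exact paired permutation test, two-sided, p = 0.156, adjusted p = 0.3125; the smallest p possible was 0.0156). The exceptions were tumour 8, with 100% against 35.29% through the synonymous Ryr1 call, and tumour 5, with 61.0% against 41.38% through the Bsn and Csmd1 calls. In tumours 1, 9, 12 and 16 the shared value included the intronic Csmd3 change c.1633+488C>G, at 80 to 100%. Their differences were -66.4, -85.7, -73.5 and -53.05 percentage points. Tumours 2, 5 and 8 lacked that change and had -33.8, 19.65 and 64.7, so the negative mean rested largely on carriers of a single shared variant.

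Private insertions and deletions had a higher median read share than private single-base variants, 64% against 12.7%, and this difference was not tested. All 10 private ones added or removed bases of a single kind, 9 were intronic, and the frameshift of Dnah5 was the exception. Their read shares ran from 21.15% to 100%, and 5 of them were at 80% or above. In the rest of the table private insertions and deletions had a median of 46.7%. At position 47696899 in Csmd3, c.6842-76dupC had 80% in tumour 18 and c.6842-77_6842-76dupCC had 88.89% in tumour 43, so 2 private alleles shared a site. At position 110456371 in Hydin, c.3328-81_3328-80delGT had 58.33% and 25% in tumours 31 and 45, and c.3328-83_3328-80delGTGT had 15.38%, 21.43% and 12.5% in tumours 16, 27 and 45. Tumour 45 was called for both Hydin alleles. Apart from the call at 58.33%, these shared Hydin calls lay below every shared single-base call, so the order seen for private variants did not extend to them.

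Tumours with a private variant of the 10 genes were then set against those without one by their private load, the number of private calls outside these genes. The 29 carriers had a median load of 226 (range 121 to 1701), and the 15 non-carriers one of 172 (106 to 457). The difference of 54 calls had an unadjusted p of 0.0466 (permutation test over tumours with 100000 resamples, two-sided) and did not pass after adjustment over the 6 tests (adjusted p = 0.194). The groups overlapped between 121 and 457 calls. A tumour with more private calls of any kind has more chances to be a carrier, so the measures are not independent by design. Load also differed between ranges of tumour titles. Among the 4 tumours titled 1199 to 1293, the 3 carriers had loads of 459 to 1701 and the non-carrier 457. Among those titled 1501 to 1592 the medians were 310 in 13 carriers and 212 in 5 non-carriers (exact permutation test, p = 0.0327, unadjusted), and among those titled 1601 to 1628 they were 184 in 13 carriers and 140 in 9 non-carriers (exact permutation test, p = 0.0954). For private calls under 20% read share the medians were 124 in carriers and 92 in non-carriers (permutation test, unadjusted p = 0.142). Without the 9 tumours titled 1505 to 1568 the load difference was 39.5 calls (permutation test, p = 0.0766, unadjusted).

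**Figure D4:**
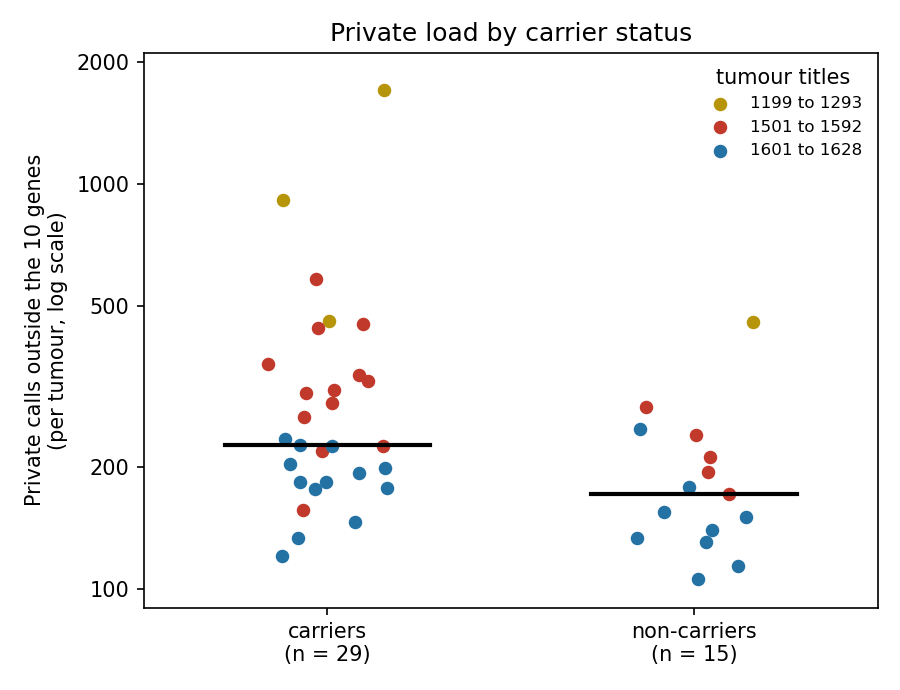
Private calls outside the 10 genes per tumour, on a log scale, for 29 carriers and 15 non-carriers of a private variant in these genes; points are tumours coloured by title range and bars are medians (226 and 172). The 2 highest points are tumours 2 and 5, both carriers.

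The number of private variants in the 10 genes and the private load had a Pearson r of 0.27 over 44 tumours (permutation p = 0.0646, adjusted p = 0.194) and a Spearman rho of 0.38 (permutation p = 0.0104, unadjusted). Without tumours 2 and 5, the farthest from the median load, r was 0.31 (p = 0.0440) and rho 0.34 (p = 0.0278). Within tumours titled 1501 to 1592 r was 0.47 (permutation p = 0.0480, n = 18) and 0.30 (p = 0.259) without the 2 tumours farthest in load, 11 and 19, so it rested on those. Within tumours titled 1601 to 1628 it was 0.41 (p = 0.0574, n = 22) and 0.53 (p = 0.0169) without tumours 28 and 34. Private variants of the 10 genes made up 0.401% of all private calls (exact 95% interval 0.299 to 0.527%), and 0.466% (0.3425 to 0.619%) without tumours 2 and 5. With all tumours kept, the share was 0.142% (0.0460 to 0.330%) in those titled 1199 to 1293, 0.445% (0.286 to 0.662%) in those titled 1501 to 1592 and 0.581% (0.365 to 0.879%) in those titled 1601 to 1628. It was 0.4997% (0.332 to 0.721%) among calls under 20% read share and 0.324% (0.205 to 0.4855%) among those of at least 20%. The intervals of titles 1601 to 1628 and of titles 1199 to 1293 do not overlap, whereas the other intervals of title ranges and both intervals by read share do. They take calls and not tumours as units, so they leave out the spread between tumours and do not show that title ranges differ. Only 4 tumours make up titles 1199 to 1293, and tumours 2 and 5 among them held 1701 and 910 private calls outside the 10 genes. The differences were not tested.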

How the data were processed

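Exons were enriched with the Agilent SureSelect mouse kit for 50 Mb named in the labels' protocols, and the submitters' processing notes name GATK and mm10. No source used here gives an aligner, a version, filters or the annotation tool. Deposited tumour cells are percent values without a stated meaning; their range and centre fit the share of alternate reads. The last deposited column is a count of called tumours. Of 25823 rows, 199 with several alternate alleles were left out, 1 of them in Hydin. Effects and written changes are those of the deposited annotation, and gene positions are from the RefSeq table of GRCm38.p6. Private status was taken over all 44 tumours and kept in every alternative but one, which set it by position instead of by allele. Protein lengths, planned for, were not used here. Fisher's and permutation tests (100000 resamples, or exact) used scipy 1.17.1 under Python 3.11.15 and were adjusted by Benjamini-Hochberg over 6 tests. Only the permutation test of medians between groups of tumours was checked on simulated data. Alternatives changed the minimum read share, the tumours, the genes or the kind of load. By a fixed rule all 10 genes and all their protein-altering variants are named. The genes and lists were chosen with earlier results of these data known. Results for single genes of the comparison list of other long genes are not reported here.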

Additional observations from a re-analysis of the deposited data

How the results depend on the processing

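No call after adjustment was at stake, as none of the 6 tests passed it, and p-values here are unadjusted. The difference in transition share, -0.81 percentage points, turned to 0.90 without tumours 2 and 5 and to 9.20 without tumours titled 1505 to 1568 (Fisher's exact test, p = 1 in both). The load difference of 54 calls kept its direction in every alternative run but its p lay above 0.05 in these: 39.5 without tumours titled 1505 to 1568, 52 with single-base load, 32 with load under 20% read share, 44 within titles 1601 to 1628, and, chosen after seeing the data, 48.5 with carriers of single-base variants only, 50 with private status by position, and 77 and 12 for low-share load within titles 1501 to 1592 and 1601 to 1628. A minimum read share of 20% left 16 carriers with 128.5 calls against 87 in 28 non-carriers (permutation p = 0.00748). The permutation p of the Pearson correlation, r = 0.27, was under 0.05 in 4 alternatives. There r was 0.31 without tumours 2 and 5 and 0.32 with protein-altering load. In those chosen after seeing the data, r was 0.35 with single-base carriers and 0.47 within titles 1501 to 1592. The permutation p of the Spearman rho was under 0.05 in every alternative run. It was highest, 0.0446, with load under 20% read share, where rho was 0.30. At a minimum read share of 20% the read share difference was -3.18 percentage points in 4 tumours (exact permutation p = 0.875), against -32.6 in all 7. That minimum cuts the quantity compared, as 28 of 41 private single-base variants lay under it and none of the 3 shared ones did. It therefore cannot show whether the difference holds. Leaving out variants in over 22 tumours removed none of these genes' variants. Between tumours and kidneys, no paired analysis was possible because kidneys were not analysed and no title number is shared. Unknown depth and only 3 shared single-base variants limit every comparison with shared variants.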
